A study of Mus musculus with 15 samples.

Results

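Female mouse primary hepatocytes kept in serum of germ-free female mice were compared directly with female hepatocytes kept in serum of conventionally raised male mice. The members are the libraries named f_pHep_f_GF_serum replicates 2 and 3 (n = 2) and f_pHep_m_ConvR replicates 1, 2 and 3 (n = 3), 5 of 15 labelled samples and of 13 libraries whose column in the count table could be assigned. They were chosen by these names. The libraries in serum of conventionally raised female mice (f_pHep_f_ConvR) do not enter the contrast. Germ-free (GF) mice carry no microbiota, and conventionally raised (convR) mice carry one.

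All cells were cryopreserved hepatocytes of CD-1 mice, an outbred stock. They were plated on collagen at 200000 cells per well, left 6 h to attach, overlaid, and kept from the next day in medium with 25% serum for 24 h. Both groups then received PBS vehicle for 2 h. Ribosomal RNA was removed from 250 ng of total RNA, and stranded libraries were amplified over 12 PCR cycles. Other groups of the study are described only for their levels: germ-free serum with growth hormone (GH) at 8 ng per ml in place of vehicle for those 2 h (f_pHep_f_GF_serum_GH, n = 3), conventional female serum (n = 2) and male hepatocytes in conventional male serum (m_pHep_m_ConvR, n = 3). In the direct contrast the sex of the serum donors and their microbiota change together, so the 2 cannot be told apart. Whether replicates came from separate cultures, animals or pools of serum is not in the labels, and p-values then measure only the spread between these samples, which may be technical.

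Serum carries hormones, lipids, bile acids, cytokines and microbial products to the hepatocyte. The cell answers through nuclear receptors such as PPAR-alpha, which controls fatty acid oxidation, through Toll-like receptors and NF-kB, which control chemokines and acute phase proteins, and through the growth hormone receptor, whose kinase JAK2 phosphorylates STAT5 and so drives Igf1. In rodents the pattern of growth hormone release differs between the sexes and shapes much of the sex difference of liver gene expression.

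The 5 libraries held from 34886134 to 40393393 counts. Levels are given as CPM, counts scaled to the size of each library, which are not corrected for gene length and are compared only within a gene. The hepatocyte marker Alb, serum albumin, stood between 6216 and 6952 CPM in the 5 libraries and Hnf4a, a transcription factor of hepatocytes, between 250 and 322 CPM. The summed level of 34 hepatocyte genes was 23040 and 23190 CPM in germ-free serum and 23670, 25910 and 25230 CPM in conventional male serum. Along the first principal component of the 5 libraries (39.3% of the variance) conventional male replicate 2 lay apart at 26.3, against 3.56 and -2.44 for its group and -16.3 and -11.1 for the germ-free libraries. Malat1, Neat1 and Xist, RNAs kept in the nucleus, overlapped between the groups, with Neat1 at 2453 and 840 CPM in germ-free and 777, 1299 and 3015 CPM in conventional male serum.

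Of 17230 genes tested, 213 differed between the sera (1.24%) at an adjusted p under 0.05 by edgeR's quasi-likelihood test with Benjamini-Hochberg adjustment, the test behind every adjusted p given here. In germ-free serum 77 genes were higher (0.447% of those tested) and 136 were lower (0.789%). By the same test 1901 of the 17230 had an unadjusted p under 0.05, and DESeq2, a second tool, called 426. The genes that rose included the chemokines Cxcl1, Cxcl2, Cxcl3 and Cxcl10, and those that fell included 8 targets of PPAR-alpha, Igf1 and the growth hormone receptor Ghr. Most changes were modest: the median size was 0.62 on the log2 scale among the genes that rose and 0.59 among those that fell, and 37 of the 213 changed by at least 1 (16 up, 21 down). The range ran from -1.94 (Arc) to 1.81 (Atp13a4), and the median over all genes tested was -0.01. The CPM of the 2 groups did not overlap for any of the 213, while 24.4% of all genes tested showed no overlap. The 213 were called on these same libraries, so their separation was largely fixed by the selection and lends the calls no support.

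How many genes were called depended on which libraries entered the fit. The fit held 11 libraries, 6 of which (germ-free serum with growth hormone, and male cells) only shared the estimate of the spread. With the 5 compared libraries alone 75 genes were called, with the 8 of female cells 84 and with all 13 libraries 78. Leaving out germ-free replicate 2 left 19 calls and leaving out germ-free replicate 3 left 34, each with a lone germ-free library assumed to vary like the other groups. Without conventional male replicate 1 there were 345 calls, and without replicate 2 there were 101. The direction of all 213 was the same in every one of 15 alternative fits in which they were tested. Their groups did not overlap and the fits reuse the same libraries, so this agreement was largely fixed in advance. Of the 213, 41 were also called in each of the fits with 5, 8 and 13 libraries (16 up, 25 down), and 10 in all 15 alternatives. Those 10 were Pde4b, Cxcl2, Crct1, Hgsnat and Ankrd1 among the rises and Unc5b, Hr, Gba2, Col27a1 and Flnc among the falls.

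**Figure D1:**
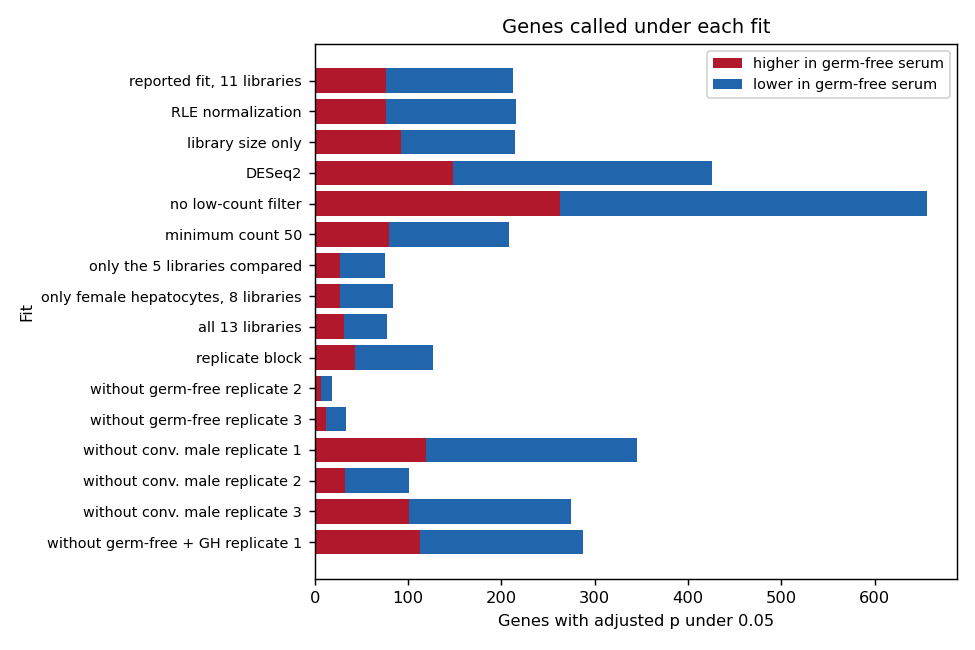
Number of genes called at an adjusted p under 0.05 (horizontal axis) in the reported fit and in each of 15 alternative fits (vertical axis), with genes higher in germ-free serum in red and lower in blue. The reported fit has 213 calls, and the alternatives run from 19 without germ-free replicate 2 to 656 without a low-count filter.

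**Figure D2:**
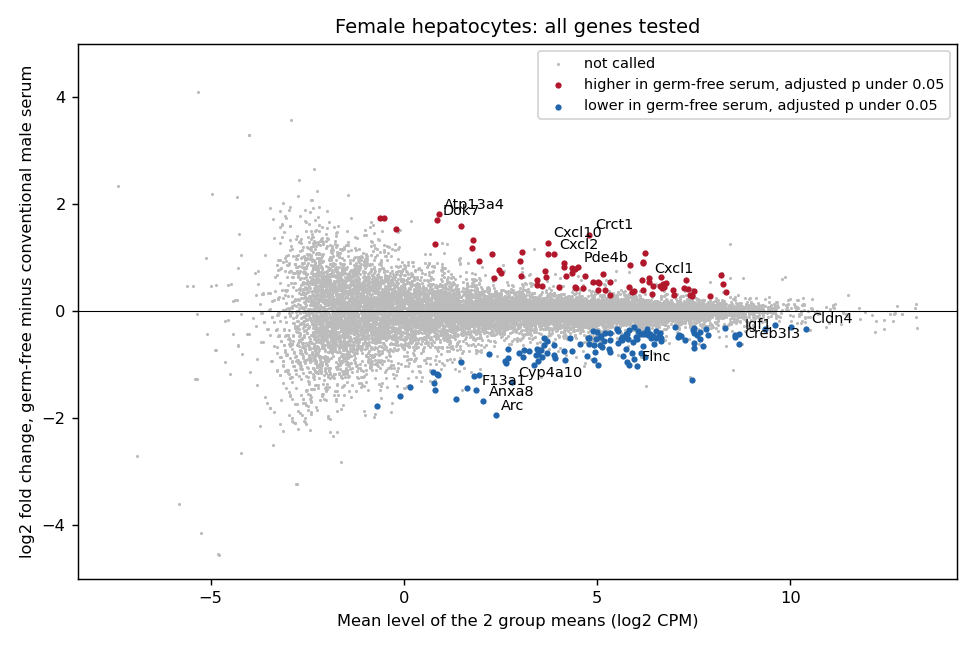
Each point is 1 gene in female hepatocytes, with the mean of both groups' mean levels (log2 CPM) on the horizontal axis and the log2 fold change, germ-free minus conventional male serum, on the vertical axis. Called genes are coloured, 77 red above the zero line and 136 blue below it, and 1 gene lies outside the plotted range.

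The 10 genes called in every fit had diverse functions. Pde4b, a phosphodiesterase that degrades cyclic AMP (mm10 chromosome 4, 102087543 to 102607259), was read at 28.9 and 29.7 CPM in germ-free and at 17.4, 15.6 and 16.5 CPM in conventional male serum. The groups were far apart relative to their spread, and the log2 change was 0.83 ± 0.0817 (SE) with an adjusted p of 0.000502. Germ-free serum with growth hormone gave 44.8 to 46.3 CPM, and conventional female serum 28.0 and 24.2 CPM. Gba2, a glucosylceramidase outside the lysosome, stood at 20.3 and 18.3 CPM in germ-free and at 35.5, 34.4 and 33.5 CPM in conventional male serum. Its change was -0.83 ± 0.0955 (adjusted p 0.000714), and the 8 libraries of the other groups held 11.3 to 20.5 CPM, so that female cells in conventional male serum were the highest of the 5 groups. Part of the Gba2 exons overlaps exons of Creb3 on the opposite strand. Unc5b, a netrin receptor, was at 37.9 and 36.6 CPM against 67.4, 85.0 and 62.0 CPM, a change of -0.94 ± 0.105 (adjusted p 0.000714). Hr, the hairless corepressor of nuclear receptors, fell by 0.92, Flnc, the actin crosslinker filamin C, by 1.03, and Col27a1, a fibrillar collagen, by 0.74 on the log2 scale.

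The chemokines Cxcl1, Cxcl2 and Cxcl3 attract neutrophils through the receptor CXCR2, and Cxcl10 attracts T cells through CXCR3. All 4 were higher in germ-free serum and lie on mouse chromosome 5. The 250 bases before their start sites are shown because NF-kB, a factor activated downstream of microbial and cytokine receptors, is known to act on chemokine promoters. The sequences are from RefSeq (GRCm38.p6, the assembly of mm10), 5′ to 3′ on the strand of the gene. Capitals mark matches to GGGANNTTC, letters of most of a kappaB site, searched on both strands. The start sites are those of RefSeq and can differ from the gene ranges given in the text, which are from GENCODE. For Cxcl2 the window ends at 90903898, inside a gene range that begins at 90903871. The windows are chr5:90890995-90891244 (plus strand) for Cxcl1, chr5:90903649-90903898 (plus) for Cxcl2, chr5:90785851-90786100 (plus) for Cxcl3 and chr5:92348890-92349139 (minus) for Cxcl10.
Cxcl1: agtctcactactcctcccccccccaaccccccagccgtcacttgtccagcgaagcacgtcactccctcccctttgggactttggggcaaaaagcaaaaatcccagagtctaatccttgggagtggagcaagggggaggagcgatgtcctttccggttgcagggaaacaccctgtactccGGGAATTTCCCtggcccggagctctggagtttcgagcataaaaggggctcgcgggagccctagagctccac
Cxcl2: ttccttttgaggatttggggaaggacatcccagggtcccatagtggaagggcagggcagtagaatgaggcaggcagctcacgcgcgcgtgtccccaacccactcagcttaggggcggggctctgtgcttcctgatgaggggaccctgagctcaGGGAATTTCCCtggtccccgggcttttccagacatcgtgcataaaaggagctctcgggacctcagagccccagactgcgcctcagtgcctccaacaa
Cxcl3: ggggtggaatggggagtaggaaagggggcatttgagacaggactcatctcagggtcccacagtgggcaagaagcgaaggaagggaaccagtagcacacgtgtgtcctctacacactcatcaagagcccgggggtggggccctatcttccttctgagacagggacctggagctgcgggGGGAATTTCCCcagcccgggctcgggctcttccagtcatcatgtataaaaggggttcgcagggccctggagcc
Cxcl10: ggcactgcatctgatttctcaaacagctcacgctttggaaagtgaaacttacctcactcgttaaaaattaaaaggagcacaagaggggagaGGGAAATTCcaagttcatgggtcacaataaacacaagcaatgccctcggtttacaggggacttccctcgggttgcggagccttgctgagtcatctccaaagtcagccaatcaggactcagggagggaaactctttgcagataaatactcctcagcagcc

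In Cxcl1, Cxcl2 and Cxcl3 the marked run was GGGAATTTCCC, which holds 2 overlapping matches, one on each strand, 71, 97 and 73 bases before the start. In Cxcl10 it was GGGAAATTC, 159 bases before the start. The letters were held by 3.23% of all 32851 RefSeq windows of this length and by 3.02% of the 12847 windows of genes tested. They were held by 9 of the 84 windows of genes called higher (10.7%) and by 1 of the 135 windows of genes called lower (0.741%). The windows of the 4 genes shown are among those 9, so the share of 10.7% is not independent of them. A second motif, TTCNNNGAA, letters of a STAT site, was searched in the same way. It was held by 6.08% of the windows of genes tested, 7.14% of those of genes called higher and 4.44% of those of genes called lower. The 4 genes were chosen for display after their values were seen, and a match describes the letters, not binding.

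Cxcl2 (mm10 chromosome 5, 90903871 to 90905938) was read at 20.5 and 19.6 CPM in germ-free serum and at 7.89, 11.4 and 9.31 CPM in conventional male serum. Both germ-free libraries were above all 3 others, and the mean was 2.1 times as high (20.1 ± 0.613 against 9.54 ± 1.78 CPM, SD). The log2 change was 1.07 ± 0.117 (SE), adjusted p 0.000714. Cxcl1 stood at 93.1 and 103 CPM against 56.2, 67.4 and 67.5 CPM, again without overlap, a change of 0.62 ± 0.0877 (adjusted p 0.00244). The Cxcl1 call was lost without germ-free replicate 3. Cxcl3 was at 4.90 and 4.52 CPM against 2.00, 1.74 and 2.44 CPM, a change of 1.19 ± 0.172 (adjusted p 0.00268), and lost its call without germ-free replicate 2. In all 3 genes conventional female serum was higher than germ-free serum, at 140 and 134 CPM for Cxcl1, 28.6 and 25.5 CPM for Cxcl2 and 5.12 and 7.40 CPM for Cxcl3. Germ-free serum with growth hormone was higher still, from 236 to 272 CPM for Cxcl1 and from 37.1 to 41.1 CPM for Cxcl2. Conventional male serum was therefore the lowest of the 4 conditions of female cells for these 3 genes.

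Cxcl10 had another order. It was read at 18.2 and 19.4 CPM in germ-free serum and at 9.91, 4.21 and 8.94 CPM in conventional male serum, a change of 1.28 ± 0.231 (adjusted p 0.0125). Conventional female serum held 3.45 and 3.60 CPM, below both groups, germ-free serum with growth hormone 12.3 to 19.7 CPM and male cells 66.9 to 68.6 CPM. The call was lost in the fits with the 5 compared libraries or the 8 of female cells and without either germ-free library. Cxcl10 shares 133 exon bases with Art3 on the opposite strand.

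In the list of 33 NF-kB targets and chemokines, 4 rose, 0 fell and 29 did not pass the test. The share called was 12.1%, against 1.24% of all genes tested (median 0.12, against -0.01 over all genes). The members that rose were Cxcl1, Cxcl2, Cxcl10 and Traf1, an adaptor of tumour necrosis factor receptors, which changed by 1.33 ± 0.268 (adjusted p 0.0227) from low levels of 1.16 to 2.61 CPM in conventional male serum to 4.78 and 5.13 CPM. Without germ-free replicate 3 the list kept 1 call, and in the 15 alternatives it had 1 to 7. The feedback inhibitors of NF-kB did not pass: Nfkbia had a log2 difference of 0.12 (adjusted p 0.56) and Tnfaip3 one of 0.17 (adjusted p 0.504). Ccl2, a monocyte chemokine, had 385 and 429 CPM against 363, 350 and 337 CPM, a difference of 0.22 (adjusted p 0.24) despite groups that did not overlap. Cxcl11, a ligand of the same receptor as Cxcl10, had a difference of -0.58 in the other direction (adjusted p 0.0638).

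Of 22 genes that sense microbial products 2 rose and 0 fell (9.09% called, against 1.24% of all genes tested). Cd14, the co-receptor for bacterial lipopolysaccharide, was at 263 and 268 CPM in germ-free and at 225, 214 and 211 CPM in conventional male serum, a small change of 0.29 ± 0.0574 (adjusted p 0.0192). Irak3, an inhibitor of Toll-like receptor signalling, changed by 0.43 ± 0.0992 (adjusted p 0.0446). The lipopolysaccharide receptor Tlr4 overlapped between the groups, at 3.90 and 2.88 CPM against 2.53, 2.35 and 3.40 CPM (adjusted p 0.6). Both calls were lost without germ-free replicate 2 and without conventional male replicate 2.

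Among 32 acute phase genes, most of which encode plasma proteins released by the inflamed liver, 2 rose and 0 fell (median 0.05). The share called was 6.25%, against 1.24% of all genes tested. Apcs, serum amyloid P, was at 113 and 130 CPM in germ-free and at 81.7, 93.3 and 92.7 CPM in conventional male serum, a change of 0.45 ± 0.0863 (adjusted p 0.0172). Crp, C-reactive protein, changed by 0.67 ± 0.152 (adjusted p 0.0436). The Crp call was lost in 8 of the 15 alternatives and the Apcs call in 3. The fibrinogen chain Fga stood at 530 and 534 CPM against 289, 423 and 329 CPM, yet its difference of 0.62 ± 0.2 had an adjusted p of 0.192. Saa1, serum amyloid A, overlapped completely at 229 and 239 CPM against 245, 253 and 225 CPM, a difference of -0.04 (adjusted p 0.9). Hamp, the iron hormone hepcidin, also overlapped, at 26.2 and 27.5 CPM against 17.4, 29.6 and 14.3 CPM. For comparison, conventional female serum gave 1484 and 1397 CPM of Fga and 98.6 and 65.6 CPM of Hamp, far above both groups of the contrast. Of 27 complement genes 0 were called (3 at an unadjusted p under 0.05, and 0 by DESeq2), and of 26 coagulation genes 1 was lower.

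Among 32 interferon-stimulated genes 2 rose and 0 fell (6.25% called, against 1.24% of all genes tested, median -0.03). Rsad2, the antiviral enzyme viperin, was at 94.3 and 95.7 CPM in germ-free and at 62.2, 43.7 and 46.3 CPM in conventional male serum, a change of 0.91 ± 0.169 (adjusted p 0.0146). Oasl1 changed by 0.53 ± 0.102 (adjusted p 0.0179). The Oasl1 call was lost in 6 of the 15 alternatives and the Rsad2 call in 3. Isg15, an interferon-induced ubiquitin-like protein, had a difference of -0.04 with overlapping groups (adjusted p 0.928). Of 27 interferon-gamma GTPases and antigen presentation genes 0 were called, 2 had an unadjusted p under 0.05 and DESeq2 called 0.

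PPAR-alpha is the receptor that switches the hepatocyte to fatty acid oxidation when fatty acids are plentiful. Of 36 of its targets 8 fell in germ-free serum and 0 rose, a share of 22.2%, and the list median was -0.31. Over all genes tested 1.24% were called in either direction and the median was -0.01. In 21 of the 36 the groups did not overlap, against 24.4% of all genes tested, and 2 of the 36 had a log2 difference above 0, against 48.5% of all genes tested. Creb3l3, a liver transcription factor that cooperates with PPAR-alpha (mm10 chromosome 10, 81084324 to 81098874), was read at 325 and 324 CPM in germ-free and at 497, 557 and 430 CPM in conventional male serum. Its mean was 325 ± 0.586 against 495 ± 63.5 CPM (SD), and the change was -0.61 ± 0.0854 (adjusted p 0.00232). Its germ-free values were the lowest of all 13 libraries.

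Other targets that fell serve the use and storage of fatty acids. Cyp4a10, which hydroxylates fatty acids at their end, was at 3.87 and 4.13 CPM against 7.17, 13.9 and 9.04 CPM, a change of -1.32 ± 0.278 (adjusted p 0.0281). Hadha, a subunit of the mitochondrial trifunctional protein of beta-oxidation, was at 191 and 209 CPM against 246, 306 and 264 CPM, a change of -0.44 ± 0.0856 (adjusted p 0.0172). Cpt1a, which admits long-chain fatty acids to mitochondria, fell by 0.30, the thioesterase Acot2 by 0.61, Cidec, a protein of lipid droplets, by 0.93, and Angptl4, a secreted inhibitor of lipoprotein lipase, by 0.59 on the log2 scale. In each of these 6 genes both germ-free libraries lay below all 3 conventional male libraries. Among targets that did not pass, Cyp4a14 had the largest difference (-1.40, adjusted p 0.0765), and Fabp1, a fatty acid binding protein, had a small one (-0.03). The mRNA of the receptor, Ppara, overlapped at 19.6 and 17.6 CPM against 18.9, 24.3 and 19.7 CPM, a difference of -0.17 (adjusted p 0.631).

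The PPAR-alpha calls rested on few libraries. Without germ-free replicate 2 there were 0 calls in the list, without germ-free replicate 3 there was 1, without conventional male replicate 2 there were 5, and with all 13 libraries there was 1. In all 8 genes conventional male replicate 2 was the highest of the 5 libraries. In conventional female serum Acot2 was at 209 and 152 CPM, so that the germ-free libraries were below both conventional sera for this gene.

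Apolipoproteins and lipoprotein receptors were called in 3 of 24 cases (12.5%, against 1.24% of all genes tested). Mttp, which loads lipid onto apolipoprotein B, was at 109 and 117 CPM in germ-free and at 136, 179 and 161 CPM in conventional male serum, a change of -0.49 ± 0.108 (adjusted p 0.0379). Vldlr, a receptor for triglyceride-rich lipoproteins, went the other way, at 84.7 and 82.8 CPM against 66.3, 61.1 and 62.0 CPM, a change of 0.41 ± 0.074 (adjusted p 0.0127). Angptl4, also a PPAR-alpha target, was the third. The list median was -0.21, and 22 of the 24 had a difference below 0, among them Apoa1 (-0.48, adjusted p 0.218) and Apob (-0.39, adjusted p 0.0947), which did not pass. With the 5 compared libraries alone, or without either germ-free library, 0 of the 24 were called. Sterol synthesis showed 0 calls in 25 genes (3 at an unadjusted p under 0.05, and 1 by DESeq2) and a median of -0.02, and LXR targets 0 in 13 (2 at an unadjusted p under 0.05, and 0 by DESeq2).

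**Figure D3:**
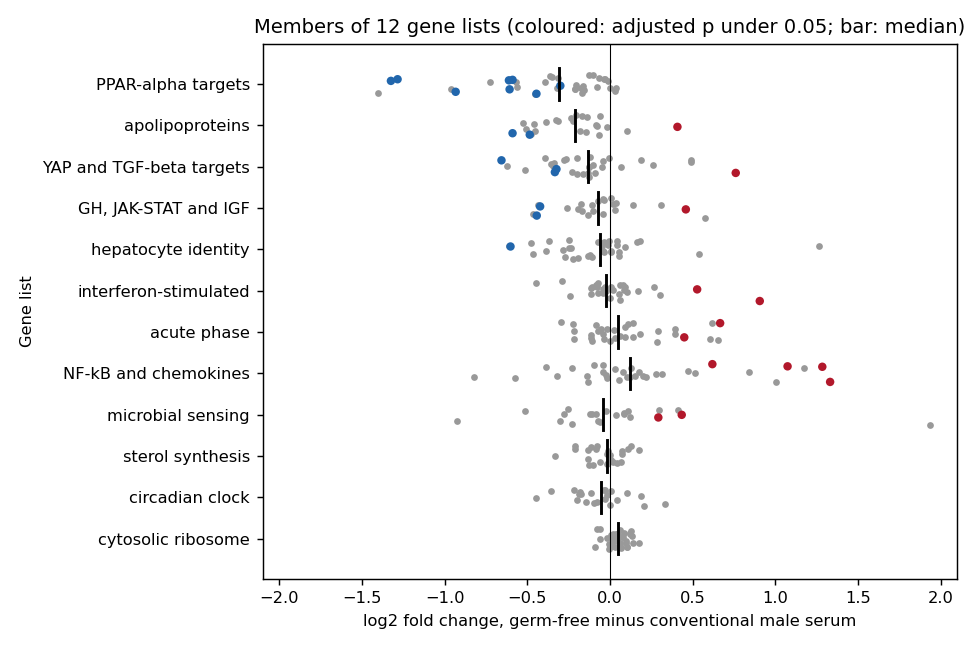
Log2 fold change (horizontal axis, germ-free minus conventional male serum) of every tested member of 12 gene lists (vertical axis), with called members in red where higher and blue where lower, and a bar at the list median. PPAR-alpha targets lie to the left, with a median of -0.31 and 8 blue points, while the 25 sterol synthesis genes and the 38 ribosomal proteins hold 0 coloured points.

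Growth hormone acts on hepatocytes through its receptor Ghr, JAK2 and STAT5, raises Igf1 and induces the feedback inhibitors Socs2 and Cish. Igf1 (mm10 chromosome 10, 87858265 to 87937042) was read at 334 and 364 CPM in germ-free and at 464, 491 and 448 CPM in conventional male serum. The groups were separated by more than their spread (349 ± 21.7 against 468 ± 21.9 CPM, SD), and the change was -0.42 ± 0.0685 (SE) with an adjusted p of 0.0061. Ghr was at 157 and 169 CPM against 191, 231 and 244 CPM, a change of -0.44 ± 0.0919 (adjusted p 0.0262). Igfbp3, a binding protein of IGF1, rose from 13.2, 13.6 and 13.8 CPM to 17.7 and 19.5 CPM, a change of 0.46 ± 0.0877 (adjusted p 0.0167). With germ-free serum and growth hormone Igf1 stood between 392 and 427 CPM and Ghr between 197 and 226 CPM.

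The feedback genes did not follow Igf1 past the threshold. Socs2 was at 15.4 and 14.5 CPM against 15.7, 16.3 and 16.3 CPM, a difference of -0.11 ± 0.0947 (adjusted p 0.734), while the libraries with growth hormone held 26.7 to 31.1 CPM. Cish overlapped, at 43.1 and 39.2 CPM against 57.8, 36.4 and 38.7 CPM (adjusted p 0.838). Bcl6, a repressor of genes of female liver that growth hormone lowers, overlapped as well, at 52.9 and 43.6 CPM against 47.9, 38 and 45.7 CPM (adjusted p 0.734). Over the 23 genes of this axis 1 rose and 2 fell (median -0.07). The Igf1 call was lost with the 5 compared libraries alone and without germ-free replicate 2, and with those settings 0 of the 23 were called. The Ghr call was lost in 8 of 15 alternatives, among them the fits with 5, 8 and 13 libraries, without either germ-free library and without conventional male replicate 2 or 3.

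Among genes known to differ between male and female liver, 1 passed the test. Of 24 genes higher in male liver 0 were called (4 at an unadjusted p under 0.05, and 0 by DESeq2), and of 32 higher in female liver 1 rose, the lipoprotein receptor Vldlr already described. On the female list 8 were at an unadjusted p under 0.05, and DESeq2 called 3, with Vldlr and Prom1 higher and Cyp4a14 lower in germ-free serum. Cyp2b9, a cytochrome P450 of female liver, overlapped at 6.91 and 7.40 CPM against 6.26, 7.97 and 6.32 CPM (adjusted p 0.924). Cyp7b1, an oxysterol hydroxylase higher in male liver, was at 2.58 and 3.41 CPM against 2.48, 2.66 and 3.07 CPM (adjusted p 0.88). Elovl3, a fatty acid elongase higher in male liver, had 0.0957 to 0.187 CPM in the 5 libraries. The oestrogen receptor Esr1 had a difference of -0.24 (adjusted p 0.716).

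**Figure D4:**
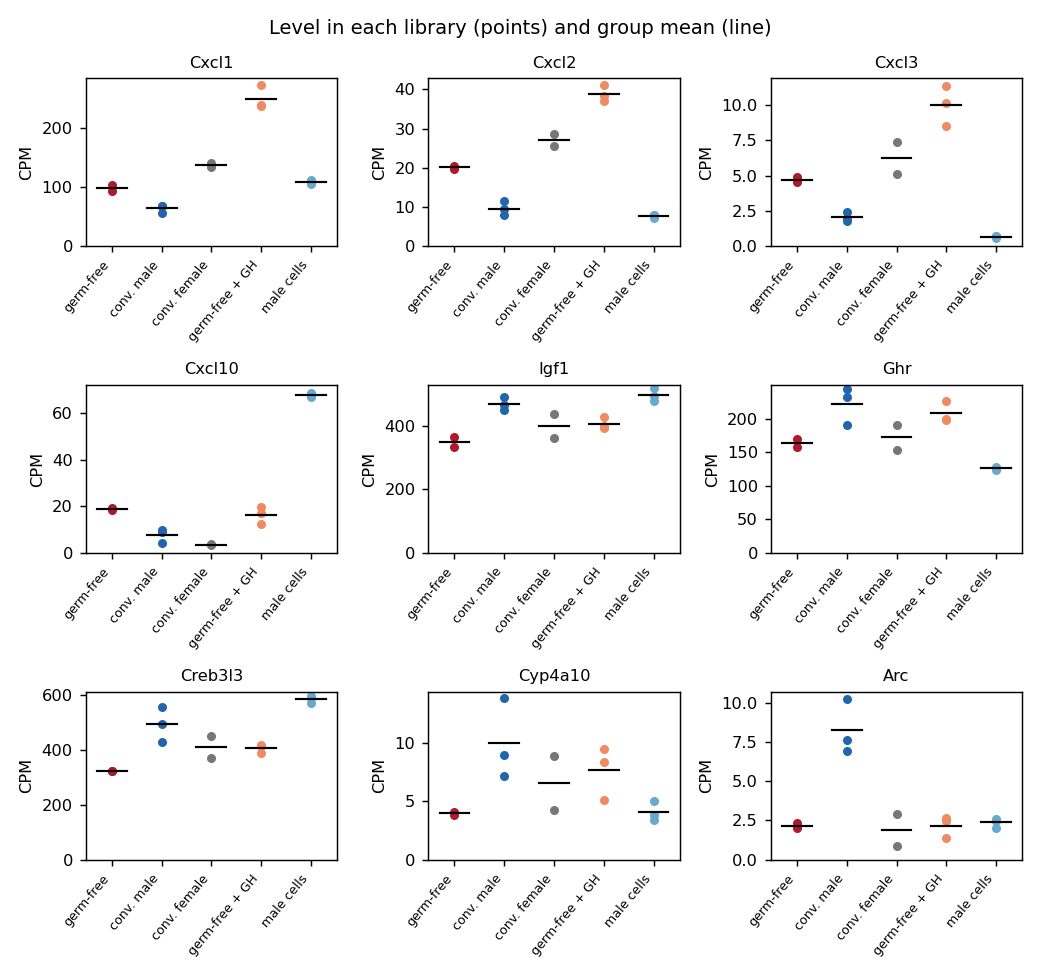
Level in CPM (vertical axes, each from 0) of 9 genes in each of 13 libraries (points), with the group mean as a line and the 5 groups along the horizontal axis. Conventional male serum is the lowest condition of female cells for Cxcl1, Cxcl2 and Cxcl3 and the highest for Igf1 and Arc, and germ-free serum is the lowest for Creb3l3.

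The largest changes concerned genes of low level. Atp13a4, a cation-transporting ATPase, was at 3.30 and 2.52 CPM in germ-free and at 0.959, 0.720 and 0.805 CPM in conventional male serum, a change of 1.81 ± 0.296 (adjusted p 0.00624). Dok7, an adaptor of the muscle kinase MuSK, changed by 1.70 and Serpinb2, an inhibitor of plasminogen activators, by 1.6. Crct1, a gene of the epidermal differentiation cluster, was the most abundant of the largest rises, at 38.7 and 42.9 CPM against 21, 11 and 13.3 CPM, a change of 1.43 ± 0.183 (adjusted p 0.00136). Cyp26a1, which degrades retinoic acid, changed by 1.25, Gpnmb, a glycoprotein of lysosomes and melanosomes, by 1.07, Pfkp, a phosphofructokinase of glycolysis, by 1.07, and Rragd, a GTPase that signals amino acid supply at the lysosome, by 0.95. The calls of Cyp26a1 and Pfkp were lost in 8 and 9 of the 15 alternatives, for Pfkp also in DESeq2. Dok7 lost its call in 7 of them.

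Arc, an immediate early gene best known from neurons, showed the largest fall. It was read at 1.99 and 2.33 CPM in germ-free serum and at 7.65, 10.2 and 6.92 CPM in conventional male serum, a change of -1.94 ± 0.247 (adjusted p 0.00136). All 10 libraries of the other 4 groups lay between 0.889 and 2.94 CPM, so the 3 libraries of female cells in conventional male serum stood above every other library. The call was lost without germ-free replicate 2. Klf4, a transcription factor in the same list of immediate early genes, fell by 0.85 (adjusted p 0.0262), while Fos (0.14, adjusted p 0.729) and Egr1 (0.20, adjusted p 0.762) did not pass. The list of 31 had 0 rises and 2 falls (6.45% called, against 1.24% of all genes tested).

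Among the other large falls, Anxa8, an annexin, changed by -1.68 and St14, the protease matriptase, by -1.19. Cym, chymosin, changed by -1.63, Myzap, a protein of cell junctions in heart, by -1.44, Nhs by -1.34 and Klhl30 by -1.21. The Cym and Nhs calls were each lost in 7 of the 15 alternatives. Ntng2, netrin G2, changed by -1.19 and shares 558 exon bases on the same strand with 6530402F18Rik. The latter had nearly the same values (1.08 and 1.16 against 2.08, 3.21 and 2.27 CPM), so reads of one cannot be told apart from reads of the other. In all, 73 of the 213 called genes shared exon bases with another annotated gene, 14 of them with a gene on the same strand.

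**Figure D5:**
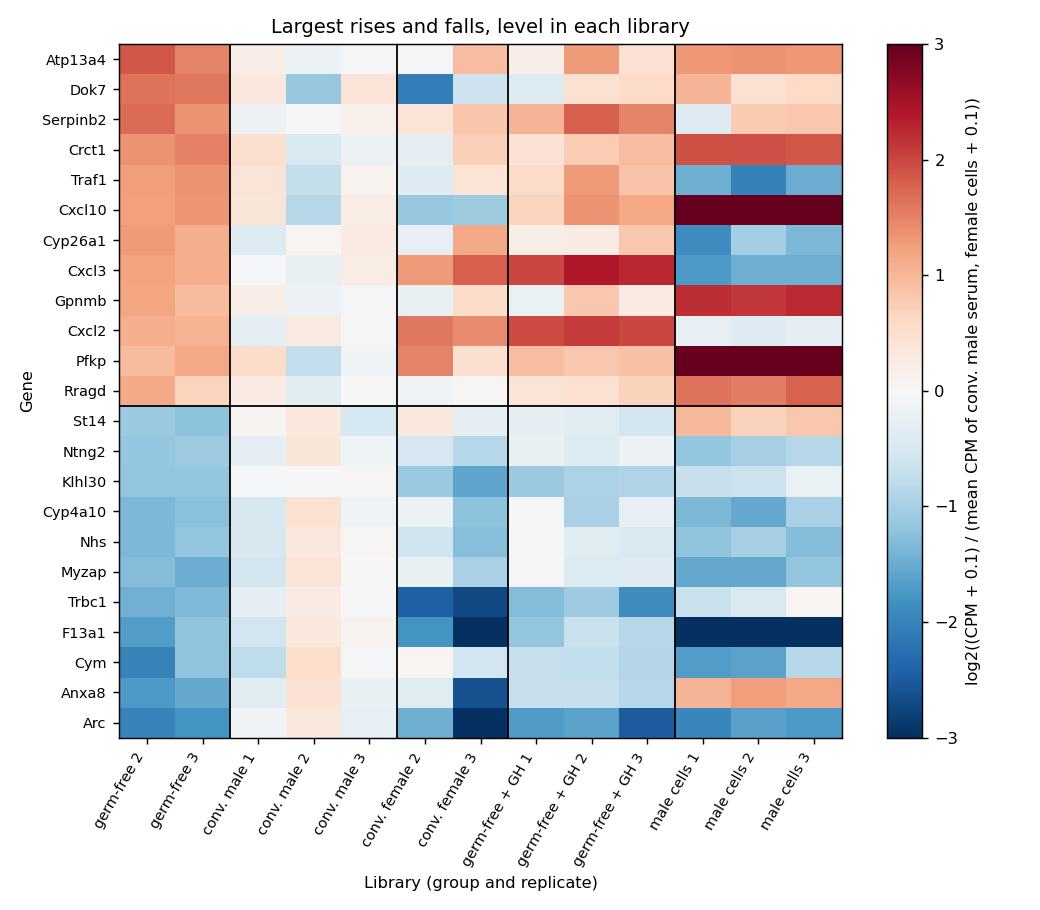
Colour shows the log2 ratio of each library's level (CPM plus 0.1) to the mean of female cells in conventional male serum (plus 0.1), limited to between -3 and 3, for the 12 largest rises (top) and 11 of the 12 largest falls (bottom) in all 13 libraries. The germ-free columns are red for the rises and blue for the falls, and Arc is blue in every library outside the conventional male columns.

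Genes of the YAP and TGF-beta pathways, which answer to cell shape and matrix, moved in both directions. Of 31 tested 1 rose and 3 fell (12.9% called, against 1.24% of all genes tested, median -0.14). Ankrd1, a target of YAP, was at 15.2 and 16.2 CPM in germ-free and at 10.6, 8.30 and 8.91 CPM in conventional male serum, a change of 0.76 ± 0.102 (adjusted p 0.00214). Ctgf, another target of YAP, went the other way at 581 and 576 CPM against 705, 735 and 746 CPM, a change of -0.33 ± 0.0697 (adjusted p 0.0273). Cldn4, a tight junction claudin, fell by 0.32 on the log2 scale. Ankrd1 was called in all 15 alternatives. The calls of Ctgf and Cldn4 were lost without either germ-free library and with the 5 compared libraries alone, where the list had 1 call.

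Bile acid genes gave 1 rise and 1 fall among 24 (8.33% called, against 1.24% of all genes tested). Abcb11, the pump that exports bile salts, was at 37.5 and 39.6 CPM in germ-free and at 27.2, 22.1 and 29.9 CPM in conventional male serum, a change of 0.54 ± 0.103 (adjusted p 0.016). Cyp8b1, which sets the share of cholic acid, was at 4.5 and 4.63 CPM against 6.80, 10.5 and 7.83 CPM, a change of -0.87 ± 0.171 (adjusted p 0.0192). Cyp7a1, the rate-limiting enzyme of bile acid synthesis, was low, at 0.478 and 0.582 CPM against 0.373, 0.194 and 0.403 CPM, and did not pass (adjusted p 0.594). Both calls were lost with the 5 compared libraries and without either germ-free library.

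For several pathways no member passed. The counts below stand beside 1901 of all 17230 genes tested at an unadjusted p under 0.05 by edgeR, and 426 called by DESeq2. The aryl hydrocarbon receptor Ahr, a sensor of indoles and other ring compounds, overlapped at 136 and 129 CPM against 116, 111 and 139 CPM (adjusted p 0.72), and its target Cyp1a1 overlapped at 1.03 and 0.610 CPM against 0.426, 0.554 and 0.654 CPM (adjusted p 0.654). Of 11 genes of that pathway 0 were called (1 at an unadjusted p under 0.05). Circadian clock genes had 0 calls in 22 (0 at an unadjusted p under 0.05), with Per2 at a difference of -0.18. Amino acid breakdown and the urea cycle had 0 in 36 (5 unadjusted), cell cycle genes 0 in 37 (3 unadjusted), glucose metabolism 0 in 26 (5 unadjusted) and cytosolic ribosomal proteins 0 in 38 (1 unadjusted). DESeq2 also called 0 in each of these 6 lists. Of 23 hypoxia-inducible genes edgeR called 0 (7 unadjusted) and DESeq2 1. Among the lists, glucocorticoid targets differed most between the tools: of 21, edgeR called 0 (10 unadjusted) and DESeq2 called 6, all lower in germ-free serum. These were Dusp1, Fkbp5, Gadd45b, Igfbp1, Pdk4 and Sgk1, with edgeR differences such as -0.30 for the phosphatase Dusp1 (adjusted p 0.0531) and -0.37 for the kinase Pdk4 (adjusted p 0.149). Of 26 targets of the drug receptors CAR and PXR 1 rose, Cyp3a13 (0.36 ± 0.07, adjusted p 0.0183), while Cyp2b10 overlapped (0.11, adjusted p 0.822), as did the receptor Nr1i3 (-0.09, adjusted p 0.932). On this list 11 had an unadjusted p under 0.05, and DESeq2 called 1 higher, Cyp3a13, and 2 lower, Gadd45b and Gstm1. Single calls were made for Mid1ip1, a regulator of fatty acid synthesis, which rose among 25 lipogenic genes, Pdia4, a chaperone of the endoplasmic reticulum, which rose among 26 genes of the unfolded protein response, and Gclc, an enzyme of glutathione synthesis, which fell among 25 targets of NRF2. These 3 calls were lost in 4 (Mid1ip1), 9 (Pdia4) and 10 (Gclc) of the 15 alternatives. On the same lists 3 lipogenic genes, 7 of the unfolded protein response and 9 NRF2 targets had an unadjusted p under 0.05. DESeq2 called 1, 1 and 2 genes of them.

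Markers of other cells differed between the groups in small amounts. In bulk samples fewer cells of a type and less RNA per cell cannot be told apart. The summed level of 20 macrophage markers was 142 and 134 CPM in germ-free and 110, 94.8 and 95.8 CPM in conventional male serum, with 0 of them absent from all 5 libraries. Of this sum Cd68, a lysosomal protein of macrophages, was 128 and 118 CPM against 91.7, 70.6 and 73.5 CPM, and it rose by 0.65 ± 0.107 (adjusted p 0.00661). The higher sum followed Cd68 and not most of the list. Of the 14 macrophage markers tested, 5 had a log2 difference above 0 and 9 below (median -0.25). Clec4f, which defines Kupffer cells, overlapped at 2.63 and 3.35 CPM against 3.01, 3.52 and 3.20 CPM, and F13a1, a coagulation factor made by macrophages, fell by 1.47 on the log2 scale. Over 18 stellate cell and fibroblast markers the sum was 110 and 106 CPM against 100, 72.3 and 86.9 CPM, and Dcn, decorin, rose by 0.90 ± 0.163 (adjusted p 0.0127). The sum of 18 T and NK cell markers was 2.80 and 3.05 CPM against 4.88, 6.06 and 5.99 CPM, with Nkg7 at 0 in all 5 libraries and Trbc1, a T cell receptor gene, lower by 1.47 on the log2 scale. Endothelial markers (18) summed to 52.9 and 53.6 CPM against 58.3, 56.9 and 55.3 CPM, and bile duct markers (13) to 135 and 141 CPM against 144, 138 and 148 CPM. The sums of B cell, neutrophil and erythroid markers were between 0.776 and 3.09 CPM in the 5 libraries, with the neutrophil markers Camp and Retnlg at 0 in all of them. The part of these cells in the changes of chemokines, lysosomal and immune genes was not tested.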

How the data were processed

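RNA of 15 labelled samples was measured by total RNA sequencing. The authors deposited 1 table of raw exon counts, whole numbers with no normalization. Reads were aligned with STAR 2.4.0i to mm10, per the submitters' processing notes. The program that counted reads, its annotation and strand setting: not given in the sources used here. The table holds 2 columns under 1 header name, which were not used, and 13 columns with a sample. Genes were matched by identifier to GENCODE M21 (36308 of 38087), and older symbols in the table are kept.

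Counts were analysed with edgeR 4.0.16 in R 4.3.3: TMM scaling, filterByExpr with a minimum count of 10, the quasi-likelihood F test (two-sided) and Benjamini-Hochberg adjustment over 17230 genes, with an adjusted p threshold of 0.05. The model had 1 term, the group, over 11 libraries (7 residual degrees of freedom, common coefficient of variation 8.62%). Standard errors are the log2 change divided by the square root of F. CPM use TMM-scaled library sizes. In data simulated on these libraries, for this comparison and 17230 genes, 68% of genes changed by 0.5 and 95% of those changed by 1 (log2) were recovered, and 13 of 176 calls were false. The changed genes were drawn only from those with a mean count of at least 50, so recovery of genes with fewer counts was not tested. Counts were drawn independently, with no library set apart as conventional male replicate 2 was. Replicates differed by more than counting noise (chi-square per degree of freedom 14.21 for the germ-free pair and 21.47 to 53.36 in conventional male serum), and each was entered as 1 sample. Such spread may be technical and does not show that the replicates were independent.

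The libraries and gene lists (47 lists, and 1 of lysosomal genes added after its values were seen) were chosen with earlier results of these data known. Named genes were the 12 largest rises and the 12 largest falls among called genes whose groups did not overlap and whose mean count reached 50, leaving out numbered gene models, up to 3 members of each list with at least 3 calls, and a set of genes of the growth hormone, sex, immune and metabolic pathways whatever their values. Other list members were named after their values were seen, and a few genes that the rule names or that passed the test are not reported here. The mitochondrially encoded genes could not be checked, because 0 of 13 matched a row. Alternatives were other scaling, DESeq2 1.42.0, other low-count filters, other sets of libraries, a replicate block and leaving out each library. Leaving out growth hormone replicate 1 was added after seeing the data.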

Additional observations from a re-analysis of the deposited data

How the results depend on the processing

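Under 15 alternative fits all 213 genes kept their direction wherever they were tested, which groups without overlap and shared libraries largely fixed in advance. The number of calls did not hold. DESeq2 called 426 genes (209 of them among the 213), a fit without a low-count filter 656, the 5 compared libraries alone 75, the 8 libraries of female cells 84 and all 13 libraries 78. Scaling by library size alone gave 215 calls, of which 43.3% were higher, against 36.2% in the reported fit. Leaving out 1 of the 5 libraries gave from 19 to 345 calls. The call was lost by 195 genes without germ-free replicate 2 and by 179 without germ-free replicate 3, fits that leave 1 germ-free library, and 10 genes kept it whichever of the 5 was left out. Without growth hormone replicate 1, whose library only shares in the spread, 288 genes were called. For the other changes of the count the cause was not tested.

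With the replicate number of the labels as a replicate block, 127 genes were called, 125 of them among the 213. The labels do not say what a shared number marks. In the 2 groups compared, the deviations of same-numbered libraries from their group means correlated at -0.079 (replicate 2) and -0.0467 (replicate 3), and with 2 germ-free libraries these deviations mirror each other. The other groups in the fit were not checked for pairing.

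Calls within lists ranged over the alternatives from 0 to 14 for PPAR-alpha targets, 1 to 7 for NF-kB targets and chemokines, 0 to 6 for the growth hormone axis, 0 to 10 for apolipoproteins and 1 to 7 for YAP and TGF-beta targets. Of the 54 named genes, 3 that were not called in the reported fit turned sign in 1 fit each. With 1 library left out, Bcl6 ranged from -0.0091 (without germ-free replicate 2) to 0.27, Cish from -0.23 to 0.13 (without conventional male replicate 1) and Cyp7b1 from -0.084 (without germ-free replicate 3) to 0.32. With 34886134 to 40393393 counts per library, small differences in genes of very few counts, such as Cyp7a1 and Elovl3, were not detectable at this depth.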

Other observations

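Lysosomal genes were looked at after their values had been seen. Of 56 enzymes and membrane proteins of the lysosome 6 rose in germ-free serum and 0 fell. The share called was 10.7%, against 1.24% of all genes tested. Of the 56, 43 had a log2 difference above 0, against 48.5% of all genes tested (median 0.08, against -0.01 over all genes tested). Hgsnat, an acetyltransferase of heparan sulfate breakdown, was at 113 and 118 CPM in germ-free and at 84.8, 79.4 and 84.0 CPM in conventional male serum, a change of 0.48 ± 0.0608 (SE, edgeR, adjusted p 0.00136). It was called in all 15 alternatives. Gla, alpha-galactosidase, rose by 0.54 ± 0.115 (adjusted p 0.0291), Ctsa, cathepsin A, by 0.31 ± 0.0655 (adjusted p 0.0311) and Arsg, an arylsulfatase, by 0.58 ± 0.133 (adjusted p 0.0436). Cd68, which rose too, is also on the list of macrophage markers. The list had 1 call without either germ-free library and 2 with the 5 compared libraries alone.

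Several secreted factors and receptors outside the lists differed, and were also picked after their values were seen. Nrg4, a growth factor that signals through ErbB4, was at 77.1 and 71.4 CPM in germ-free and at 48.3, 35.2 and 38.1 CPM in conventional male serum, a change of 0.87 ± 0.138 (adjusted p 0.00485). In conventional female serum it was at 49.9 and 92.9 CPM, a range that holds both germ-free values and lies above all 3 conventional male values. Pdgfb, a chain of platelet-derived growth factor, was at 53.6 and 53.8 CPM against 75.2, 86.2 and 69.3 CPM, a change of -0.52 ± 0.106 (adjusted p 0.0252). The urokinase receptor Plaur fell by 0.38 ± 0.0728 (adjusted p 0.0161), Hpgd, which inactivates prostaglandins, by 0.94 ± 0.182 (adjusted p 0.0186) and the BMP receptor Acvr1 by 0.47 ± 0.0866 (adjusted p 0.0127), while the BMP target Id1 rose by 0.94 ± 0.21 (adjusted p 0.0388). Among heat shock proteins Cryab rose by 0.51 ± 0.105 (adjusted p 0.0262) and Hspa1b fell by 0.64 ± 0.13 (adjusted p 0.0235). Plaur, Hpgd, Id1 and Cryab each lost the call in 7 of the 15 alternatives, Pdgfb in 6, Hspa1b in 5, Acvr1 in 3 and Nrg4 in 2.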
